A study of Homo sapiens with 18 samples.

Results

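The 10 genes described here are ATF4, DDIT3, TRIB3, ASNS, PSAT1, CHAC1, SESN2, HSPA5, XBP1 and DNAJB9, all taken by symbol from a gene count table of 55766 entries. They report on the integrated stress response and the unfolded protein response. The cells were K562, an established human erythroleukaemia line, and every group, untreated cells included, carried a B2M:tdTomato transgene, which joins the gene of beta-2 microglobulin to a red fluorescent protein. The study compared untreated cells with cells silenced at B2M by DNA methylation that was directed with TALE proteins or with dCas9, 2 kinds of programmable DNA-binding protein. Per the labels, silencing used a mixture of 3 plasmids coding for different repressors, 1 of them D3A-based, and a guide RNA plasmid in the dCas9 arm. The labels give neither the interval between treatment and harvest nor whether a group was a clone or a bulk population. RNA-seq and MeDIP-seq, which sequences DNA captured by an antibody against methylated cytosine, were each done on 3 libraries per group. Nothing in the labels says that replicates came from separate cultures, so the p-values measure the spread between these libraries, which may be technical.

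The integrated stress response begins with kinases that phosphorylate the translation factor eIF2, which lowers general protein synthesis while favouring translation of the transcription factor ATF4. ATF4 then drives genes of amino acid supply and of stress control, among them DDIT3 (CHOP). The unfolded protein response is set off by misfolded protein in the endoplasmic reticulum (ER), through the sensors PERK, IRE1 and ATF6. PERK feeds into ATF4, IRE1 splices the XBP1 mRNA into its active form, and ATF6 with spliced XBP1 raises ER chaperones such as HSPA5 (BiP). Counts per gene measure neither the translation of ATF4 nor the splicing of XBP1.

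Promoter stretches are shown for the 4 members with an exact match to a motif of the response. All 10 genes had a RefSeq promoter window (GRCh38.p14 table), running from 250 bases before to 50 bases after a start, and the windows were located in GRCh37 by their sequence. The C/EBP-ATF response element, searched as TGATGNAA on both strands, was in the windows of 2 members, ASNS and CHAC1, and in those of 1217 of 27305 genes (4.46%). The ER stress response element, CCAAT and CCACG separated by 9 bases of any kind, was in those of 2 members, HSPA5 and XBP1, and of 25 of 27305 genes (0.0916%). Matches are shown in capitals, 5′ to 3′ on the strand of the gene. They are marked because, among the members, only ASNS and CHAC1 matched the C/EBP-ATF element and only HSPA5 and XBP1 the ER stress element. ATF4, DDIT3, TRIB3, PSAT1, SESN2 and DNAJB9 held no exact match to either. Only exact matches were searched. Sites that differ from these letters by a base were therefore not counted in any window, nor marked in the printed stretches. For HSPA5 and XBP1 the printed stretch runs to the outermost annotated exon. For ASNS and CHAC1 the match lies in an exon of another transcript of the gene, so only 30 bases around it are printed.
ASNS, chr7:97501770-97501799, minus strand: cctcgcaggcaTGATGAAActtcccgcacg
CHAC1, chr15:41245449-41245478, plus strand: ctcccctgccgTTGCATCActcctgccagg
HSPA5, chr9:128003662-128003872, minus strand: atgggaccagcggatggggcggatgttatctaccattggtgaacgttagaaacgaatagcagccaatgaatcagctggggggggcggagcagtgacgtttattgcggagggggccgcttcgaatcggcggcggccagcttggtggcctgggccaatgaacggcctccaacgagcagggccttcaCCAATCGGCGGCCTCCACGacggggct
XBP1, chr22:29196586-29196807, minus strand: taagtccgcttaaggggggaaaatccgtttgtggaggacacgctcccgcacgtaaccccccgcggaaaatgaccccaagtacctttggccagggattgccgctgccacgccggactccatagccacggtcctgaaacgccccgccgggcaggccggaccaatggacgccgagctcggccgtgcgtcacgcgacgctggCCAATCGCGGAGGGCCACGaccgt
The ASNS match is on the strand of the gene at -68 to -61, counted from the base before the start as -1, and the CHAC1 match is on the opposite strand at -209 to -202. Those of HSPA5 (-66 to -48) and XBP1 (-52 to -34) are on the strand of the gene. ERSE-II (ATTGG and CCACG separated by 1 base of any kind), the unfolded protein response element (TGACGTGG) and the cAMP response element (TGACGTCA) matched in 0 of 10 members, against 0.0696%, 0.927% and 2.25% of genes. A match is a description of letters in the window and does not show that a factor binds there.

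RNA libraries held 8460076 to 12050554 counts. Untreated replicate 3 had a count for 33110 genes and the other libraries for 21714 to 24963, and the part of this in the results was not tested. Mitochondrial transcripts took 4.04% to 6.32% of counts in the TALE libraries, 7.15% to 10.3% in the untreated and 6.15% to 14.0% in the dCas9 libraries. The silenced gene was measured first: the B2M_tomato entry stood at 379 ± 18.0 CPM (counts scaled to a common library size by TMM factors; SD, n = 3) in untreated, 15.1 ± 2.84 in TALE and 16.3 ± 2.58 in dCas9 cells. All 10 erythroid markers on the list for K562 passed the filter on low counts. Of the 5 lists of 5 markers for other cell types, each was led by 1 gene or stayed low. The T cell list summed to 17.9 to 30.8 CPM, and 2 of its 5 markers passed the filter. Libraries had at least 151 counts of CD3D and 19 to 36 of CD3G, but at most 6 of CD3E, 1 of CD2 and 4 of CD8A. The monocyte list summed to 15.8 to 27.1 CPM, led by LYZ, with at most 3 counts of CD14 and 5 of CD68. The epithelial list summed to 85.3 to 123 CPM, led by EPCAM, with at most 2 counts of CDH1 and 0 of KRT14. The fibroblast list reached at most 11.6 CPM and the B cell list 1.95 CPM. As in any bulk sample, fewer cells of a type and less RNA per cell cannot be told apart.

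Neither way of silencing B2M was accompanied by a call on any of the 10 genes. All 10 were among the 13786 genes that passed the filter. In edgeR's quasi-likelihood test, with p-values adjusted over all of those genes, 0 of 10 members passed an adjusted p of 0.05 in TALE against untreated cells, where 0.0218% of all genes did. In dCas9 against untreated cells 0 of 10 passed, against 0.029% of all genes, and in TALE against dCas9 0 of 10 passed, against 0%. At an unadjusted p under 0.05, 1 member (SESN2) counted in the TALE comparison, against 7.15% of all genes, and 1 (PSAT1) in the dCas9 comparison, against 5.93%. In TALE against dCas9 it was 0, against 6.38%. DESeq2 called 0 of 10 in each comparison as well. All libraries of one group lay apart from all of the other for 0 members in TALE against untreated cells, 1 in dCas9 against untreated cells and 0 in TALE against dCas9, against 12.5%, 11.6% and 9.38% of all genes. The 2 comparisons with untreated cells share their control libraries.

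**Figure D1:**
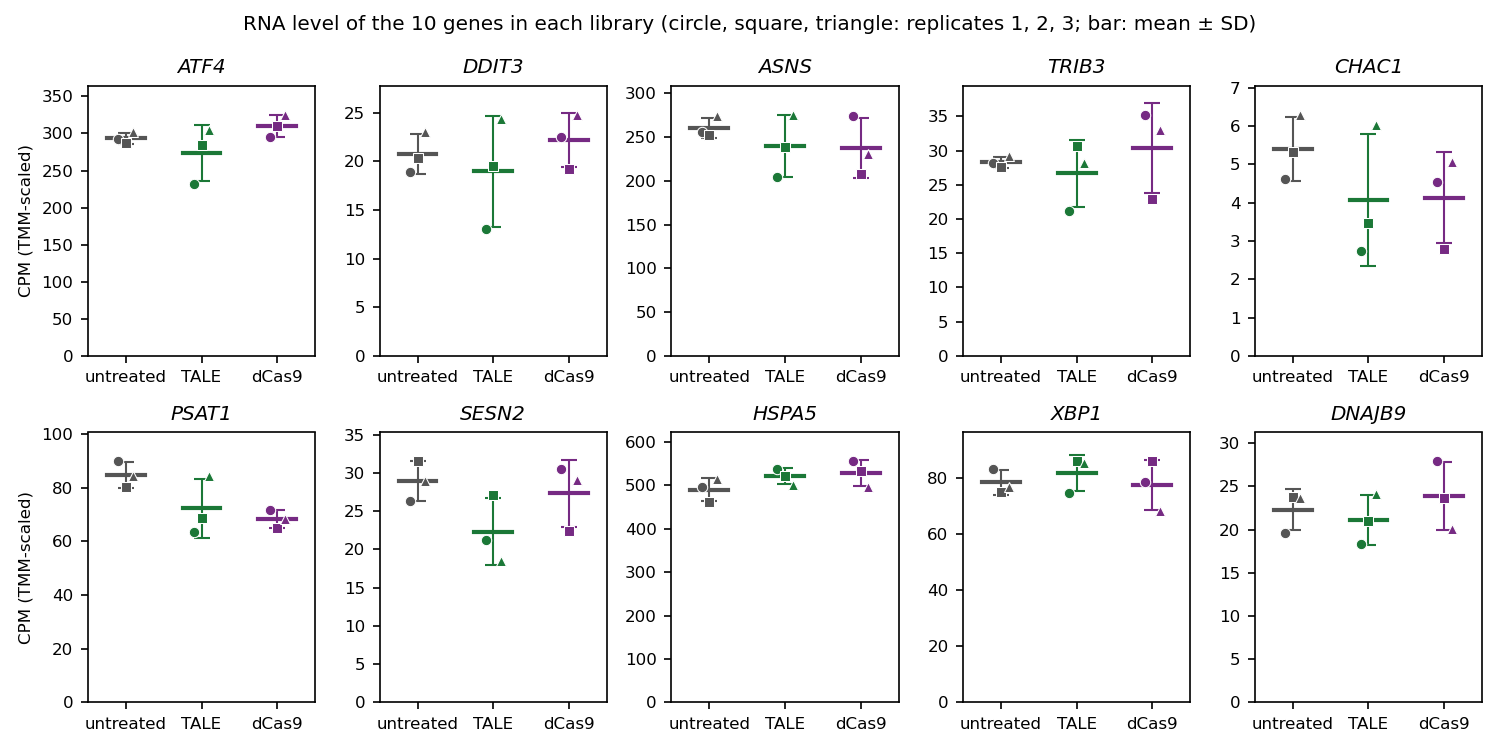
RNA level in TMM-scaled CPM for each of the 10 genes in the 9 libraries, by group, with points for replicates 1 (circle), 2 (square) and 3 (triangle) and bars for the mean ± SD. The groups of every gene overlap in both comparisons with untreated cells except PSAT1 in dCas9 against untreated, where the dCas9 libraries reach 71.8 CPM and the untreated libraries start at 80.3 CPM.

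ATF4, the transcription factor at the centre of the integrated stress response, lies on chr22:39915700-39918688 (GRCh37, plus strand). It stood at 292, 287 and 302 CPM in untreated replicates 1 to 3, at 231, 284 and 305 CPM in TALE and at 296, 310.2 and 325 CPM in dCas9. TALE replicate 1 was the lowest library, and the other 8 libraries lay between 284 and 325 CPM. The log2 fold change (edgeR) was -0.10 in TALE against untreated cells (95% interval -0.36 to 0.16) and 0.08 in dCas9 against untreated cells (-0.18 to 0.34), with adjusted p of 0.892 and 0.994. Without TALE replicate 1 the TALE value was 0.0067. ATF4 itself had 2319 to 3683 counts per library and processed copies with their own entries had at most 46 (ATF4P4). How reads shared with those copies were counted is not given in the sources used here, so the level of ATF4 is uncertain in that respect.

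DDIT3 codes for CHOP, a transcription factor that promotes cell death under lasting stress. It had 18.9, 20.4 and 23.0 CPM in untreated, 13.0, 19.5 and 24.4 CPM in TALE and 22.5, 19.3 and 24.8 CPM in dCas9 libraries. The groups overlapped, and TALE replicate 1 again gave the lowest value. The log2 fold changes were -0.13 in TALE (-0.51 to 0.26) and 0.10 in dCas9 cells (-0.29 to 0.48), with adjusted p of 0.912 and 0.994 by edgeR. The TALE value was 0.080 without TALE replicate 1. DDIT3 (chr12:57910371-57915520, minus strand) overlaps MBD6 and MARS1 on the other strand. On its own strand it overlaps MIR616 and, over 2769 bases, a protein-coding gene that the annotation gives by identifier alone. The use of strand in counting is not given in the sources used here, and even with it the reads of genes on the same strand could not be told apart.

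TRIB3, a pseudokinase induced by ATF4 and CHOP that dampens their action, had 28.2, 27.6 and 29.2 CPM in untreated libraries. TALE libraries had 21.2, 30.7 and 28.2 CPM, and dCas9 libraries had 35.2, 22.9 and 33.0 CPM. The untreated libraries were the closest to each other (SD 0.809 CPM), while TALE (SD 4.93) and dCas9 (SD 6.58) spread below and above them. The log2 fold changes were -0.08 (-0.42 to 0.26) and 0.10 (-0.24 to 0.45), with adjusted p of 0.943 and 0.994 by edgeR. The signs turned with a library left out, to 0.058 without TALE replicate 1 and to -0.018 without dCas9 replicate 1.

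Among the amino acid enzymes, ASNS makes asparagine and PSAT1 carries out a step of serine synthesis. ASNS (chr7:97480989-97501854, minus strand) had 255, 253 and 274 CPM in untreated, 204.5, 239 and 275 CPM in TALE and 274, 207 and 231 CPM in dCas9 libraries. Each silenced group had 1 library level with the highest untreated value, within 2 CPM of it, and 2 libraries below the lowest untreated value. The log2 fold changes of ASNS were -0.12 (-0.41 to 0.16) and -0.13 (-0.42 to 0.15), with adjusted p of 0.88 and 0.974 by edgeR. PSAT1 (chr9:80912041-80945009, plus strand) had 89.8, 80.3 and 84.3 CPM in untreated, 63.4, 68.9 and 84.6 CPM in TALE and 71.8, 65.1 and 68.5 CPM in dCas9 libraries.

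All dCas9 libraries lay below all untreated libraries for PSAT1, the only member with groups that did not overlap in any of the 3 comparisons; 5.97% of all genes were separated in that direction in this comparison. The log2 fold change of PSAT1 in dCas9 cells was -0.31 (-0.56 to -0.06), with an unadjusted p of 0.0193 and an adjusted p of 0.721 by edgeR. An exact two-sided permutation test gave 0.1, the smallest p that 3 libraries against 3 can give. In TALE cells the log2 fold change was -0.23 (-0.48 to 0.02; adjusted p 0.731 by edgeR). Over all alternatives of the fit the dCas9 value stayed between -0.35 and -0.26, with adjusted p from 0.408 to 1. Without TALE replicate 1 the TALE value was -0.15, and without TALE replicate 3 it was -0.36, with an adjusted p of 0.16 by edgeR.

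CHAC1 degrades glutathione and is a sensitive target of ATF4. It was the least abundant member, with 27 to 65 counts per library, so that counting error alone comes to 14.3% at its median of 49 counts. It had 4.63, 5.31 and 6.29 CPM in untreated, 2.74, 3.47 and 6.02 CPM in TALE and 4.54, 2.80 and 5.06 CPM in dCas9 libraries. The log2 fold changes, -0.40 in TALE (-1.01 to 0.21) and -0.37 in dCas9 cells (-0.99 to 0.24), had the widest intervals of the 10 genes. Their adjusted p-values were 0.805 and 0.959 by edgeR. The coefficient of variation of CHAC1 between libraries was 15.5% in untreated, 42.2% in TALE and 28.7% in dCas9 cells. The TALE value was -0.19 without TALE replicate 1.

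SESN2, a stress-induced protein that senses leucine and restrains mTORC1, lies on chr1:28586029-28609002 (plus strand). It had 26.3, 31.5 and 28.9 CPM in untreated, 21.3, 27.1 and 18.5 CPM in TALE and 30.6, 22.4 and 29.0 CPM in dCas9 libraries. TALE replicates 1 and 3 lay below every untreated library and TALE replicate 2 lay among them. The log2 fold change was -0.37 in TALE (-0.70 to -0.04), with an unadjusted p of 0.0317 and an adjusted p of 0.65 by edgeR. It was -0.08 in dCas9 cells (-0.40 to 0.25; adjusted p 0.994 by edgeR) and 0.048 there without dCas9 replicate 2. The difference between TALE and dCas9 was -0.29 (-0.62 to 0.04; adjusted p 0.813 by edgeR). Unlike most of the integrated stress response genes, SESN2 was lowest in TALE replicate 3.

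HSPA5 and XBP1 had the narrowest spread over the 9 libraries, with coefficients of variation of 5.48% and 7.85%. HSPA5 (BiP), the main ER chaperone, lies on chr9:127997132-128003661 (minus strand) and had 495, 461 and 514 CPM in untreated, 538, 522 and 501 CPM in TALE and 555, 533 and 495 CPM in dCas9 libraries. The groups overlapped, with log2 fold changes of 0.09 (-0.17 to 0.34) and 0.11 (-0.15 to 0.36) and adjusted p of 0.906 and 0.982 by edgeR. The upper ends of these intervals lie at 1.27 times the untreated level of HSPA5 in TALE cells and 1.29 times in dCas9 cells. They rest on the spread between these libraries, which may be technical, and so set no firm limit on a change. XBP1 (chr22:29190543-29196585, minus strand), whose spliced form codes for a transcription factor, had 83.4, 75.3 and 76.8 CPM in untreated, 74.7, 86.0 and 85.3 CPM in TALE and 78.6, 86.0 and 68.2 CPM in dCas9 libraries.

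The log2 fold changes of XBP1 were 0.06 (-0.18 to 0.31) and -0.02 (-0.26 to 0.23), with adjusted p of 0.939 and 0.997 by edgeR, and the dCas9 value of XBP1 was 0.030 without untreated replicate 1 and 0.069 without dCas9 replicate 3. DNAJB9, a co-chaperone of BiP that is induced by spliced XBP1, lies on chr7:108210311-108215294 (plus strand). It had 19.6, 23.7 and 23.6 CPM in untreated, 18.3, 21.0 and 24.1 CPM in TALE and 27.9, 23.7 and 20.0 CPM in dCas9 libraries. The dCas9 libraries of DNAJB9 covered almost the whole range seen in the data. The log2 fold changes of DNAJB9 were -0.07 (-0.39 to 0.25) and 0.10 (-0.22 to 0.42), with adjusted p of 0.95 and 0.994 by edgeR. The TALE value of DNAJB9 was 0.020 without TALE replicate 1, and its dCas9 value was -0.026 without dCas9 replicate 1.

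**Figure D2:**
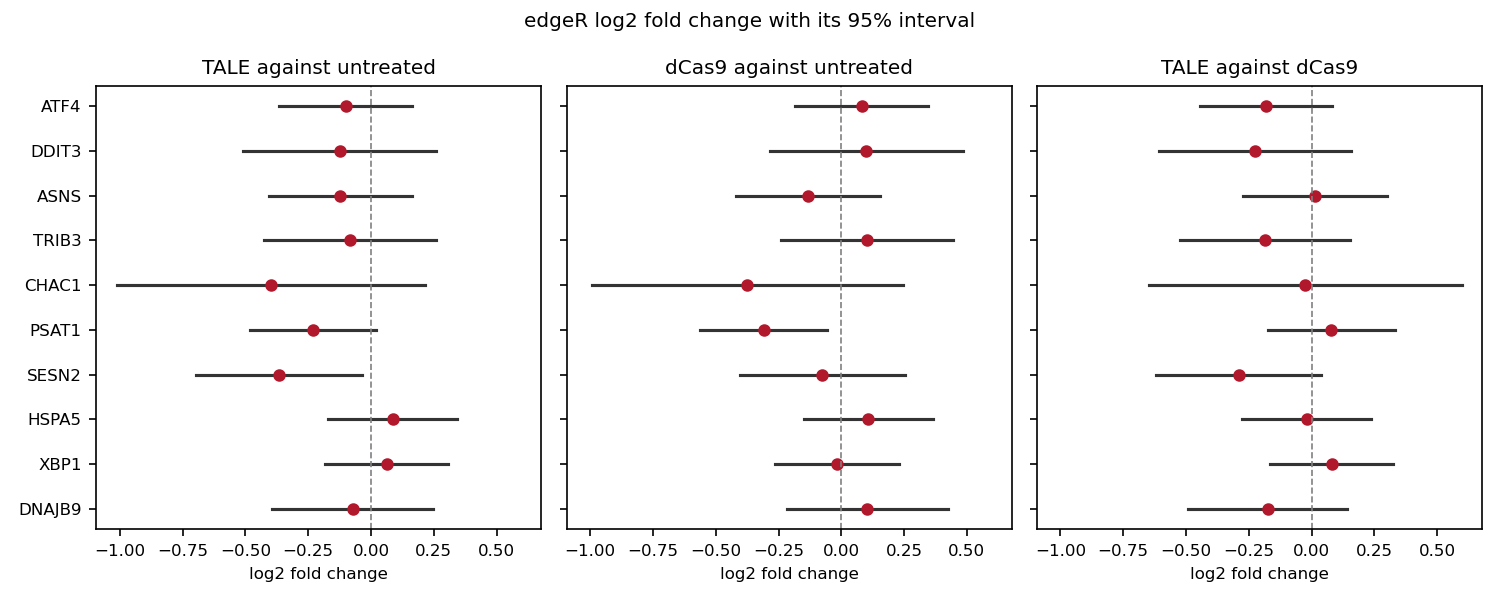
Log2 fold change of each gene (points; edgeR) with its 95% interval (lines) in the 3 comparisons. Only SESN2 in TALE against untreated (-0.70 to -0.04) and PSAT1 in dCas9 against untreated (-0.56 to -0.06) have intervals that leave out 0, and neither passed after adjustment.

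As a group, the members had a median log2 fold change of -0.11 in TALE against untreated cells, where the median of all genes tested was 0.0023, and 8 of 10 were below 0. In dCas9 against untreated cells the median was 0.03, with 5 of 10 below 0, and in TALE against dCas9 it was -0.10, with 7 of 10 below 0. The TALE median rested on 1 library: without TALE replicate 1 it was 0.013. That library held the lowest value of 7 of the 10 members, ATF4, DDIT3, TRIB3, ASNS, PSAT1, CHAC1 and DNAJB9. It held the lowest value of 15.1% of all genes tested and the highest of 17.8%. Without TALE replicate 3 the median was -0.21. Without dCas9 replicate 1 the dCas9 median turned to -0.027, with 7 of 10 below 0, and the TALE against dCas9 median was -0.013, with 5 of 10 below 0. With a library left out the dCas9 median ran up to 0.064 (without dCas9 replicate 2) and the TALE against dCas9 median down to -0.20 (without TALE replicate 3); without TALE replicate 1 the latter was -0.031.

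**Figure D3:**
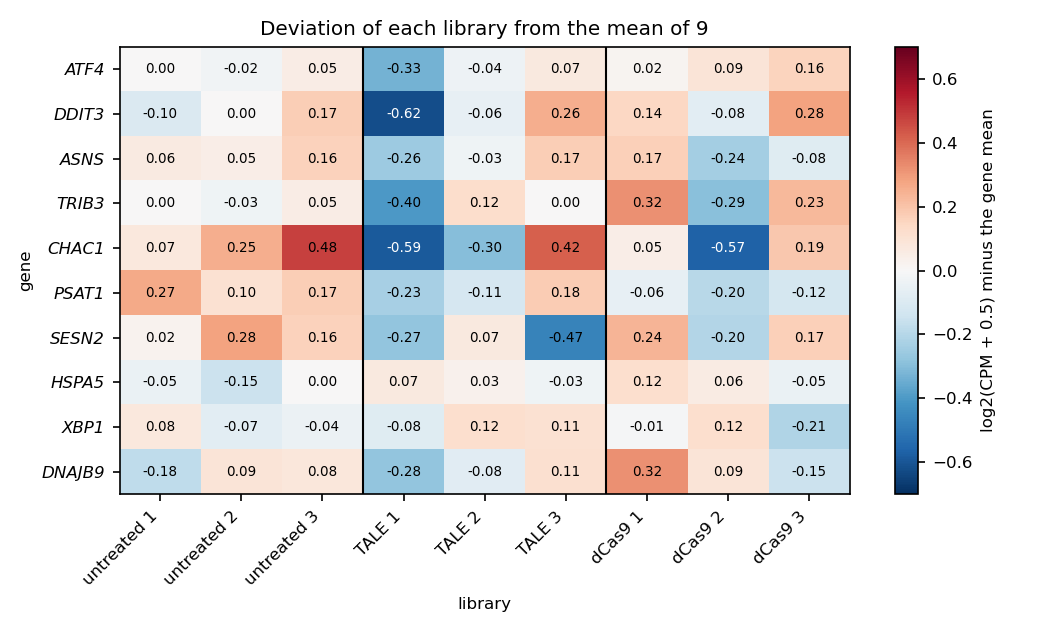
Each cell gives log2(CPM + 0.5) of a gene in a library minus the mean of that gene over the 9 libraries, with red above and blue below the mean. TALE replicate 1 is below the mean for 9 of the 10 genes, from -0.62 for DDIT3 to -0.08 for XBP1, and HSPA5 is above it at 0.07.

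Levels were compared between genes per kilobase of the canonical transcript. In untreated cells ATF4 had the highest level at 207 ± 5.34 CPM per kilobase (SD, n = 3), followed by HSPA5 at 125 ± 6.77 and ASNS at 109 ± 4.79. XBP1 (43.8 ± 2.43), PSAT1 (38.4 ± 2.16) and DDIT3 (23.0 ± 2.27) came next, then TRIB3 (12.0 ± 0.342), DNAJB9 (9.27 ± 0.965), SESN2 (8.35 ± 0.757) and CHAC1 (3.56 ± 0.551). The order was the same in TALE and dCas9 cells. The ranges of DNAJB9 and SESN2 overlapped in all 3 groups, and those of TRIB3 and DNAJB9 overlapped in TALE and dCas9 cells. Both genes of a pair were read in the same libraries, so overlapping ranges do not show whether they differ. That difference was not tested. With the length of all exons merged, PSAT1 (38.4 CPM per kilobase) stood above XBP1 (25.9) in untreated cells, and DNAJB9 (8.8) above TRIB3 (8.6). The most abundant members sat high in the whole table, HSPA5 at rank 235 and ATF4 at rank 520 of 13786 genes by mean CPM, while CHAC1 was at rank 10343.

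Levels of the integrated stress response genes were positively correlated over the 9 libraries, although no pair passed adjustment. For the 21 pairs among ATF4, DDIT3, TRIB3, ASNS, PSAT1, CHAC1 and SESN2 the median Pearson r of log2(CPM + 0.5) was 0.587, and 21 of 21 were above 0. Of these pairs 6 of 21 (28.6%) reached an r of 0.7, against 3.55% of all pairs of genes tested, for which the median r was -0.0015. The 3 pairs among HSPA5, XBP1 and DNAJB9 had a median r of 0.238, and the 21 pairs across the arms had a median of -0.052. These values share the depth and preparation of 9 libraries and are a description. After each group mean was subtracted, the medians were 0.704, 0.294 and 0.055. PSAT1 with SESN2 (-0.302) and ATF4 with SESN2 (-0.114) were then below 0. That step leaves the deviation of TALE replicate 1 from its group in place. With TALE replicate 1 left out instead, several of the 21 pairs fell below 0, among them ATF4 with ASNS (-0.334) and PSAT1 (-0.314). Others stayed above 0, such as ASNS with CHAC1 (0.794) and DDIT3 with CHAC1 (0.678).

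The closest pair was ATF4 and DDIT3, with r of 0.906 (exact permutation p 0.00623, adjusted over 45 pairs 0.107) and Spearman's rho of 0.667 (exact permutation p 0.0589, adjusted 0.489). Without TALE replicate 1 and dCas9 replicate 3, the libraries farthest from the median of ATF4, r was 0.381. Leaving out extreme libraries narrows the range of ATF4, which can itself lower r. With only TALE replicate 1 left out r was 0.609, and after each group mean was subtracted it was 0.904. ASNS and CHAC1 had an r of 0.86 (exact permutation p 0.00447, adjusted 0.107) and a rho of 0.70 (exact permutation p 0.0433, adjusted 0.487), and r was 0.541 without TALE replicate 1 and dCas9 replicate 2. ASNS and PSAT1 had an r of 0.791 and the highest rho, 0.833 (exact permutation p 0.0143 and 0.00827, adjusted 0.113 and 0.372), with an r of 0.571 without the same libraries. In all, 0 of 45 pairs passed an adjusted p of 0.05 and 8 had an unadjusted exact permutation p below it. The lowest r was that of PSAT1 and HSPA5, at -0.556.

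**Figure D4:**
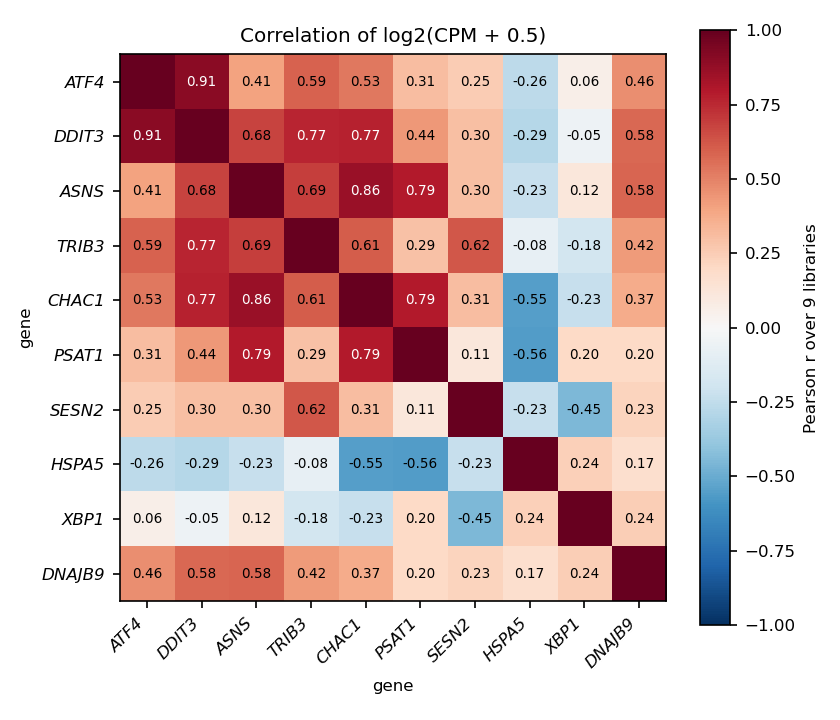
Pearson r of log2(CPM + 0.5) over the 9 libraries for each pair of genes, from -1 (blue) to 1 (red). The block of the 7 integrated stress response genes at the upper left is positive throughout, from 0.11 to 0.91, while HSPA5 is below 0 with all 7 of them. Without TALE replicate 1 several pairs of the block fell below 0, down to -0.33 for ATF4 with ASNS. With a library left out HSPA5 reached values above 0 with TRIB3 (0.195), ATF4 (0.095) and SESN2 (0.093). With DDIT3, ASNS, CHAC1 and PSAT1 it stayed below 0.

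Over 8655 genes with a mean of at least 10 CPM, the gene most like ATF4 across the 9 libraries was SKAP2 (r 0.968), and the one most like DDIT3 was FAM178B (r 0.992). RPL18 was most like ASNS (r 0.989), LINC00649 most like TRIB3 (r 0.967), LINC01011 most like CHAC1 (r 0.975) and PUS10 most like PSAT1 (r 0.948). SREBF2 was most like SESN2 (r 0.964), TSR2 most like HSPA5 (r 0.908), ETNK1 most like XBP1 (r 0.96) and KLHDC2 most like DNAJB9 (r 0.941). The second gene of each member was RAB27B for ATF4, ALDOA for DDIT3, CKS1B for ASNS, COPE for TRIB3, ISCA2 for CHAC1, CDKN1C for PSAT1, SGSM3 for SESN2, ALDH1A1 for HSPA5, CLPX for XBP1 and APOO for DNAJB9. None of these genes is a member or on a list of the pathway. Each r is the highest of 8655 values over 9 points.

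The other genes of the pathway were taken as 8 lists of 124 genes in all. Of those tested, 0 passed an adjusted p of 0.05 by edgeR in any of the 3 comparisons. The share of all genes that passed was 0.0218% in TALE against untreated, 0.029% in dCas9 against untreated and 0% in TALE against dCas9. Upstream of ATF4, 13 of the 16 genes of the eIF2 kinases, eIF2 and its regulators were above 0 in TALE against untreated cells (median log2 fold change 0.07), and 8 of 16 in dCas9 against untreated cells. The TALE count was 9 of 16 without TALE replicate 1 and also with upper-quartile factors in place of TMM. The TALE median was 0.027 without TALE replicate 2 and 0.12 without untreated replicate 1. EIF2S3, the most abundant of them, had 467 ± 20.5 CPM in untreated, 473 ± 27.2 in TALE and 485 ± 25.1 in dCas9 cells (SD, n = 3). PPP1R15A, which codes for the GADD34 subunit that reverses eIF2 phosphorylation, had a log2 fold change of -0.18 in TALE cells (adjusted p 0.784 by edgeR). IMPACT, an inhibitor of the eIF2 kinase GCN2, had -0.46 in dCas9 cells (unadjusted p 0.00488, adjusted p 0.522 by edgeR), from 17.2 ± 1.22 to 12.6 ± 1.34 CPM.

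The 8 ER stress sensors and their activators were evenly split, with 4 above and 4 below 0 in both comparisons with untreated cells. RTCB, the ligase that joins the spliced XBP1 mRNA, had a log2 fold change of 0.26 in TALE cells (adjusted p 0.717 by edgeR), and ERN1, which codes for IRE1, had -0.24 in dCas9 cells (adjusted p 0.921 by edgeR). Of the 14 ATF4 partners and stress-induced regulators 11 passed the filter on low counts. GADD45A, a growth arrest gene and the most abundant of them, had 136 ± 1.42 CPM in untreated, 133 ± 13.6 in TALE and 139 ± 17.3 in dCas9 cells (SD, n = 3). ATF3, a transcription factor downstream of ATF4, had -0.32 in TALE cells (adjusted p 0.788 by edgeR), and ATF5 had 0.26 in dCas9 cells (adjusted p 0.857 by edgeR). For 3 of the 11 all TALE libraries lay below all dCas9 libraries, against 4.5% of all genes. In TALE against untreated cells 3 of 11 were above 0, and 5 without untreated replicate 3.

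Of the 14 enzymes of amino acid synthesis and one-carbon metabolism, 7 were above 0 in TALE and 8 in dCas9 cells. ALDH1L2, a mitochondrial folate enzyme, had the lowest p of its list in both: its log2 fold change was -0.41 in TALE (unadjusted p 0.00828, adjusted p 0.578 by edgeR) and -0.30 in dCas9 cells (adjusted p 0.832 by edgeR). The most abundant enzyme, BCAT1, which acts on branched-chain amino acids, had -0.01 and 0.04. Among 12 amino acid transporters the cystine carrier SLC7A11 had 89.2 ± 7.71 CPM in untreated, 71.5 ± 6.23 in TALE and 77.9 ± 2.10 in dCas9 cells (SD, n = 3). Its log2 fold change was -0.32 in TALE (unadjusted p 0.0112, adjusted p 0.585 by edgeR) and -0.19 in dCas9 cells (adjusted p 0.902 by edgeR). SLC38A2, the most abundant transporter, had 0.00 and 0.18.

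The cytosolic aminoacyl-tRNA synthetases, which charge tRNA with amino acids, were mostly above 0 in TALE cells. Of 20 genes 19 were above 0 against untreated cells, with a median log2 fold change of 0.13 where that of all genes was 0.0023. Against dCas9 cells 18 of 20 were above 0, with a median of 0.16, and 8 of 20 had all TALE libraries above all dCas9 libraries, against 4.88% of all genes. In dCas9 against untreated cells 9 of 20 were above 0, with a median of -0.01, but without untreated replicate 1 it was 16 of 20, with a median of 0.066. Against dCas9 cells the TALE count was lowest, at 14 of 20, without TALE replicate 2 and also with upper-quartile factors in place of TMM. NARS, which charges asparagine, had 185 ± 22.0 CPM in untreated, 224 ± 10.0 in TALE and 190.2 ± 12.5 in dCas9 cells (SD, n = 3), with a log2 fold change of 0.27 in TALE against untreated cells (adjusted p 0.658 by edgeR). GARS, the most abundant of the list, had 0.05 in both comparisons with untreated cells, and FARSA had 0.20 in dCas9 cells (adjusted p 0.899 by edgeR). The mitochondrial share of counts was lower in every TALE library than in any untreated library, at 4.04% to 6.32% against 7.15% to 10.3%, and its part in these values was not tested.

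The 20 ER chaperones and folding enzymes had 18 above 0 in TALE and 11 in dCas9 cells against untreated cells, with medians of 0.07 and 0.01; the dCas9 median was -0.010 without dCas9 replicate 1. CANX, a lectin chaperone and the most abundant of them, had 943 ± 86.3 CPM in untreated, 1005 ± 30.4 in TALE and 939 ± 62.7 in dCas9 cells (SD, n = 3). PDIA3, a disulphide isomerase, had 0.22 in TALE cells (adjusted p 0.732 by edgeR), and ERO1LB had 0.51 in dCas9 cells, with an interval from -0.21 to 1.22. Of the 20 genes of ER-associated degradation and translocation 8 were above 0 in TALE and 5 in dCas9 cells. DERL1, a part of the channel for degradation, had 0.25 in TALE cells (adjusted p 0.696 by edgeR), EDEM1, which marks misfolded glycoproteins, had -0.27 in dCas9 cells (adjusted p 0.744 by edgeR), and UFD1L had -0.04 and -0.09.

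**Figure D5:**
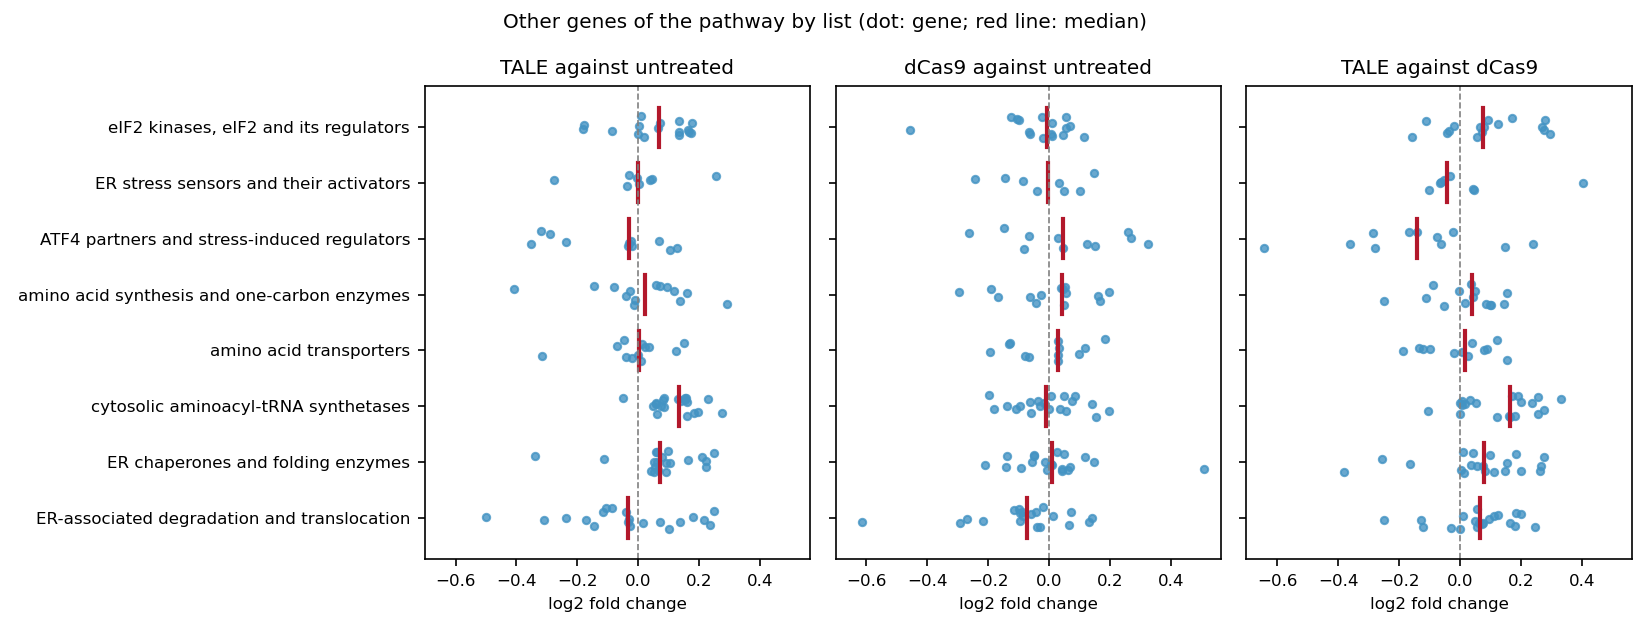
Log2 fold change of each tested gene (dots) of the 8 lists of other pathway genes in the 3 comparisons, with the median of each list as a red line. The aminoacyl-tRNA synthetases lie to the right of 0 in both comparisons of TALE (medians 0.13 and 0.16) and around 0 in dCas9 against untreated cells (median -0.01; 0.066 without untreated replicate 1).

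DNA methylation was read at the same genes in the MeDIP libraries, which held 2529729 to 4492751 counts in the listed regions. No deposited region or peak overlapped the 250 bases before the start of any of the 10 members, including the printed promoter stretches of ASNS, CHAC1, HSPA5 and XBP1. Such an overlap was present for 99 of 10158 protein-coding genes tested for RNA (0.975%). Within 2 kb of a start, 6 of the 10 members had a region, against 54.4% of those genes. In the bodies of members or within 2 kb of their starts there were 44 regions, at 7 of the 10 genes, with 17 at PSAT1 and 11 at TRIB3. ATF4, CHAC1 and XBP1 had none listed.

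Of the 44 regions 19 passed the filter on low counts, and 0 of 19 were called by edgeR in TALE against untreated cells, where 0% of 105652 regions were. In dCas9 against untreated cells and in TALE against dCas9 0 of 19 were called, each against 0.000947% of all regions. At an unadjusted p under 0.05 there was 1 of 19 in TALE against untreated cells, against 4.74% of all regions, and 0 in the others, against 4.69% and 4.47%. That region lies in the body of PSAT1, at chr9:80928023-80928295 (hg19). It had 8, 6 and 9 counts in untreated, 5, 14 and 36 in TALE and 7, 6 and 16 in dCas9 libraries, with a log2 fold change of 1.24 in TALE cells (0.24 to 2.23; unadjusted p 0.0155, adjusted p 1 by edgeR). The groups overlapped, and TALE replicate 3 held the highest count.

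The region nearest to a start that could be tested was upstream of HSPA5, at chr9:128005210-128005500. It had 28, 16 and 15 counts in untreated, 20, 10 and 21 in TALE and 11, 22 and 12 in dCas9 libraries, with log2 fold changes of -0.11 (-0.86 to 0.63) and -0.38 (-1.14 to 0.38). The region upstream of SESN2, at chr1:28583809-28584256, had 29, 24 and 42 counts in untreated, 21, 16 and 29 in TALE and 13, 32 and 25 in dCas9 libraries. Its log2 fold changes were -0.44 (-1.07 to 0.19) and -0.41 (-1.04 to 0.21), with an adjusted p of 1 in both comparisons by edgeR. A region in the body of DDIT3, at chr12:57911580-57911873, had 12, 0 and 3 counts in untreated, 8, 2 and 19 in TALE and 11, 19 and 3 in dCas9 libraries. With counts this low, intervals of the difference at this DDIT3 region reached from -0.42 to 2.42 in TALE and from -0.27 to 2.53 in dCas9 cells.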

How the data were processed

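Groups and replicate numbers came from the sample titles. The tables were deposited by the authors, both of unnormalized counts for 9 libraries: RNA by gene symbol and MeDIP by region. Per the submitters' processing notes, RNA processing named STAR 2.3.0, MeDIP processing named BWA 0.7.5, Picard, MACS2 and bedtools, and the build was hg19. Counting tool, annotation and use of strand are not given in the sources used here. Per the labels' protocols, RNA was amplified with a kit for degraded samples, and MeDIP libraries were pooled before capture. The deposited peak lists give a fold enrichment ratio per peak, made by the authors for each sample; only peak positions were used. Region starts equal the 0-based peak starts and are printed 1-based. All 18 count columns matched a sample, and 0 columns of other samples were left.

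Counts were tested in edgeR 4.0.16 (R 4.3.3): quasi-likelihood F-test, TMM factors, filterByExpr with a minimum of 10 counts, 1 model of group means over 9 libraries, Benjamini-Hochberg adjustment over all genes or regions, threshold 0.05. CPM are TMM-scaled. Intervals at 95% came from the fitted difference and its SE. For single values an exact two-sided permutation test of log2(CPM + 0.5) was added, and member pairs were tested by exact permutation of pairings. Scripts were tested on simulated data. Alternatives were DESeq2 1.42.0, other factors and filters, fits of only the groups compared, a replicate block and each library left out. Gene positions came from GENCODE on GRCh37, the sequence of hg19, and promoters from RefSeq.

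The text names all members, B2M_tomato as the check of the target, for each list the most abundant gene and the gene of lowest p against untreated cells in each silenced group, and for each member the 2 genes of highest r. Members and lists were chosen with earlier results of these data known. Counting error is one part of the spread; intervals from counts alone are not given.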

Additional observations from a re-analysis of the deposited data

How the results depend on the processing

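Members called stayed at 0 in all 3 comparisons under every alternative run. Of 510 member values under the alternatives, 489 kept their direction and 21 took the other, 20 of them with a library left out; the other was ASNS in TALE against dCas9, at -0.0097 with upper-quartile factors. The cause was not tested.

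Counts of genes called moved more. Without a filter on low counts 74, 89 and 77 genes were called in TALE against untreated, dCas9 against untreated and TALE against dCas9 (3, 4 and 0 as reported). With at least 10 counts in every library, 1 and 2 were called in the comparisons with untreated cells. For dCas9 against untreated, 8 were called in a fit of only those groups and 13 by DESeq2. Leaving out a library gave 2 to 16, 2 to 10 and 0 to 21 genes, with the highest counts without TALE replicate 3 (16 and 10) and without dCas9 replicate 1 (21). For MeDIP, no filter gave 2 regions in dCas9 against untreated and 0 in TALE against dCas9; leaving out a library gave 0 to 2, 0 to 3 and 0 to 1 regions.

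With the replicate number as a block, 2 genes and 0 MeDIP regions were called in dCas9 against untreated. Deviations of same-numbered RNA libraries correlated from -0.284 to 0.103, and those of libraries of different groups and numbers from -0.136 to 0.249. These overlapping ranges cannot tell whether the numbers pair the libraries. Counts of each pair of libraries were also compared by chi-square per degree of freedom. For TALE replicate 3 this was 4.63 with dCas9 replicate 1, but 34.1 and 23 with TALE replicates 1 and 2. For dCas9 replicate 1 it was 54.4 and 29.1 with dCas9 replicates 2 and 3. Untreated replicates 2 and 3 were close, at 2.12. The cause was not tested. With the block 0 members were called.

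With a library left out, log2 fold changes in TALE against untreated ran from -0.19 to 0.0067 for ATF4, -0.34 to 0.080 for DDIT3, -0.20 to 0.058 for TRIB3 and -0.17 to 0.020 for DNAJB9. In dCas9 against untreated they ran from -0.026 to 0.22 for DNAJB9, -0.17 to 0.048 for SESN2, -0.018 to 0.27 for TRIB3 and -0.098 to 0.069 for XBP1. In TALE against dCas9 they ran from -0.097 to 0.13 for ASNS, -0.40 to 0.18 for CHAC1, -0.068 to 0.019 for HSPA5, -0.048 to 0.16 for PSAT1 and -0.0095 to 0.16 for XBP1. At the MeDIP region of DDIT3 the TALE against dCas9 value ran from -0.72 to 0.31, at SESN2 from -0.24 to 0.20 and at HSPA5 from -0.055 to 0.50. Against untreated cells HSPA5 ran from -0.44 to 0.14 in TALE and PSAT1 from -0.32 to 0.87 in dCas9 cells.

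Pairs of members that passed adjustment went from 0 to 2 with a library left out: ATF4 with DDIT3 (r 0.966) without dCas9 replicate 2, and DDIT3 with ASNS (r 0.827) and ASNS with CHAC1 (r 0.924) without dCas9 replicate 3. A window of 1 kb in place of 2 kb left 2 of 8 MeDIP regions near a start. Under the alternatives the median of the aminoacyl-tRNA synthetases stayed between 0.094 and 0.18 in TALE against untreated. In TALE against dCas9 it stayed between 0.125 and 0.207. Following the lists through the alternatives was added after seeing the data, as were merged exon lengths. Counts were lowest for CHAC1 (27 to 65) among the members and for the MeDIP regions; what part depth has in their intervals was not tested.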

Other observations

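Of the 11 tested ATF4 partners and stress-induced regulators, 9 were below 0 in TALE against dCas9. Their median log2 fold change was -0.14 where that of all genes was 0.0017. An adjusted p of 0.05 by edgeR was passed by 0 of 11, and by 0% of all genes. For 3 of 11 all TALE libraries lay below all dCas9 libraries, against 4.5% of all genes: ATF5, with -0.28, CEBPB, a partner of ATF4 in binding DNA, with -0.36, and JDP2, with -0.29. ATF3 had the lowest value, -0.64 (unadjusted p 0.00589, adjusted p 0.677 by edgeR). These genes were chosen after their values were seen. STC2, at 0.24, and TRIB1, at 0.15, were above 0. Without TALE replicate 1 the median of the list was -0.0037, with 7 of 13 below 0, and without dCas9 replicate 3 also 7 of 13 were below 0.

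The 8 aminoacyl-tRNA synthetases with TALE libraries above dCas9 libraries were EPRS (log2 fold change 0.33), FARSB (0.26), IARS (0.26), NARS (0.24), QARS (0.19), TARS (0.18), KARS (0.17) and LARS (0.16), named after their values were seen. WARS, which charges tryptophan, was the lowest of the 20, at -0.10. Their adjusted p-values by edgeR were 0.745 or higher.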
